A study of Mus musculus with 10 samples.

Results

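The clustered protocadherins are cell-surface cadherins encoded by 3 neighbouring gene arrays, the Pcdha, Pcdhb and Pcdhg clusters. Every gene of the expression table whose symbol begins with Pcdha, Pcdhb or Pcdhg was taken, which gave 59 of 21937 genes. Of these, 15 belong to the alpha, 22 to the beta and 22 to the gamma cluster. Measured was RNA of mouse embryonic stem (ES) cells on a C57BL/6 background, with 10 libraries in all and a single one per condition and time. SFEB is a serum-free aggregate culture that steers ES cells to neuroectoderm, and its libraries came from Tet3 knockout (KO) cells given Dkk, from untreated Tet3 KO cells and from wild-type (WT) cells, each on day 10 and on day 6. In medium with fetal bovine serum (FBS), which is not permissive for neural fate, they came from Tet3-overexpressing and from control cells on day 7 and on day 4. Tet3 encodes a dioxygenase that oxidises 5-methylcytosine, and Dkk is a secreted protein that keeps Wnt ligands from acting on their receptors. The KO cells derive from mice with floxed Tet3 alleles, and transient Cre expression cut out the floxed exon. The dose of Dkk, the way Tet3 was overexpressed and the nature of the control cells were not given in the sources used here. No clone or further line is named for any genotype, so genotype and line cannot be told apart.

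Each alternate gene of the alpha, beta and gamma clusters has its own promoter, and single neurons are known to use small, varied sets of them, whereas the C-type genes at the ends of the alpha and gamma clusters are used more widely. The proteins bind the same isoform on another cell and let neurites of a neuron recognise and avoid each other. Promoter choice is known to involve DNA methylation by Dnmt3b, the insulator protein Ctcf with cohesin, and the repressors Smchd1 and Setdb1. An alpha or gamma mRNA joins a variable first exon to constant exons shared by its cluster, while a beta gene is a single exon.

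Values are RPKM, read counts scaled to transcript length and library size, so levels can be compared between genes of different length. Reads of the shared exons make alpha and gamma values less certain than beta values. Pcdha8 and Pcdha4-g, alternate alpha genes, were listed at 0 in all 10 libraries and Pcdha4 was at most 0.02 RPKM, so the shared exons were not credited to every alpha gene. How reads were divided among the other genes of a cluster is not given in the sources used here. Depth estimated from the table was 10200000 to 37200000 reads in the SFEB libraries and 17400000 to 43900000 in the FBS libraries. For a beta gene of median length, 3418 bases, a count of 0 allows up to 0.0236 to 0.0861 RPKM in the SFEB libraries and 0.02 to 0.0504 RPKM in the FBS libraries, the value of 3 reads. Intervals below are 95% intervals from estimated reads and cover counting error only. In RNA of whole cultures, fewer cells of a type and less RNA per cell cannot be told apart.

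The series as a whole gives this frame. Tet3 stood at 13.1 RPKM with KO and Dkk, 14.3 with KO and 10.2 in WT on day 10, against 7.64, 6.59 and 8.11 RPKM on day 6 in the same order. One exon was removed and the values are for the whole gene, so they do not check the genotype. With overexpression Tet3 was at 14.1 RPKM, against 5.87 in control on day 7, and at 12.5, against 0.96 on day 4. The label of every library is embryonic stem cells. The summed RPKM of 4 pluripotency markers was 9.03 to 24.7 on day 10 and 38.4 to 59.9 on day 6 of the SFEB culture, against 231.4 to 1337 in the FBS culture, so these defining markers were low in the SFEB libraries.

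The beta cluster had the largest difference between days in summed RPKM. Its summed level was 42.0 RPKM in KO with Dkk, 53.2 in KO and 67.3 in WT on day 10. On day 6 it was 4.61 RPKM in KO with Dkk, 5.21 in KO and 8.29 in WT. Each day 10 library was thus far above each day 6 library. The log2 ratio of day 10 over day 6 was 3.19 (interval 2.97 to 3.41) in KO with Dkk, 3.35 (3.13 to 3.57) in KO and 3.02 (2.84 to 3.20) in WT, which is 8.12-fold to 10.2-fold. The alpha cluster, at lower levels, summed to 6.79, 7.92 and 7.10 RPKM on day 10 in KO with Dkk, KO and WT, and to 1.87, 0.73 and 1.41 RPKM on day 6 in the same order. The gamma cluster summed to 52.6, 66.7 and 49.4 RPKM on day 10 and to 44.2, 41.0 and 38.1 RPKM on day 6. Gamma log2 ratios between the days were 0.25 in KO with Dkk, 0.70 in KO and 0.38 in WT, each with an interval above 0. The clusters also differed in level in the FBS culture, where gamma held 9.43 to 38.2 RPKM, alpha 0.29 to 1.41 and beta 0.51 to 2.61.

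**Figure D1:**
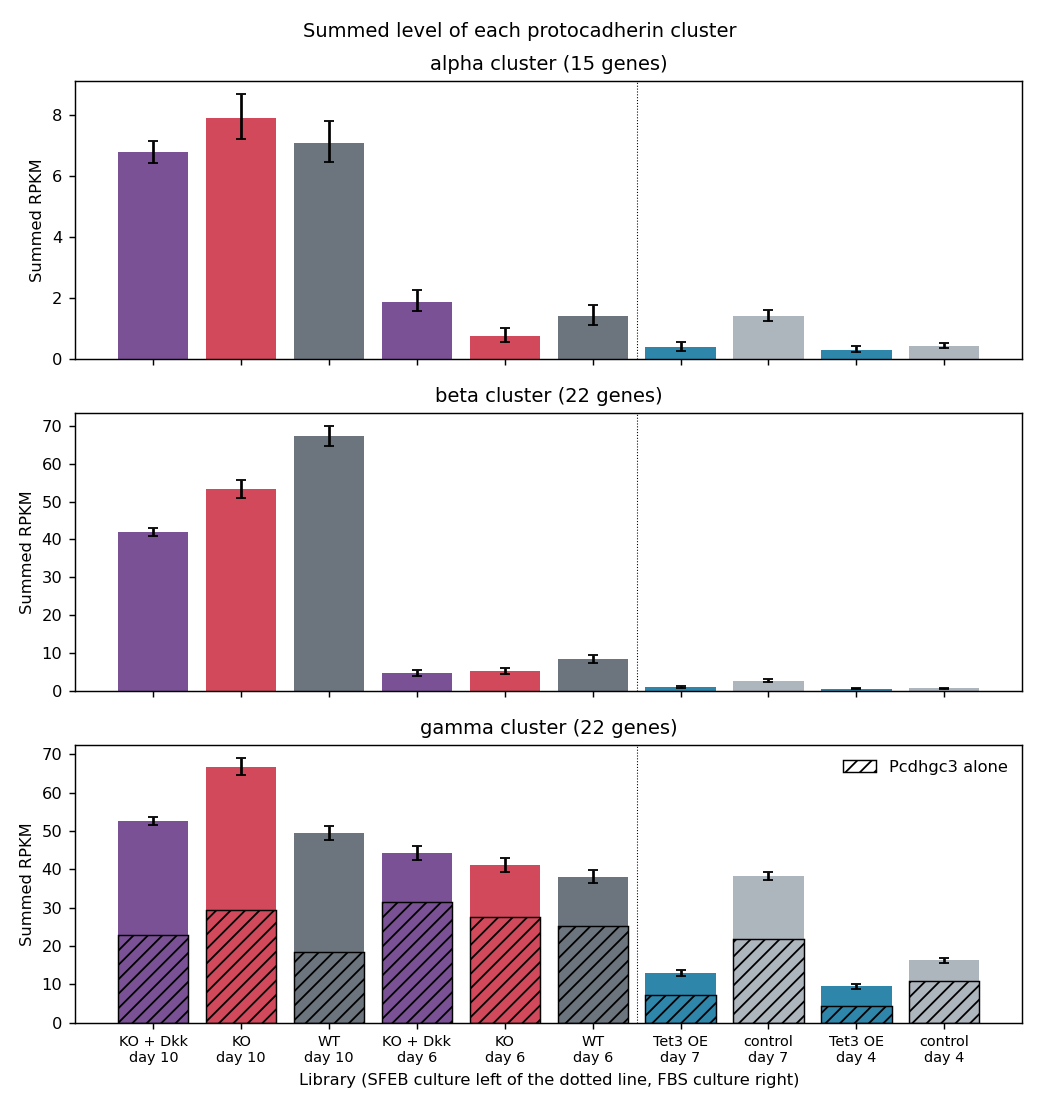
Summed RPKM of the alpha, beta and gamma clusters in each of the 10 libraries (bars, linear axis from 0, a separate scale for each cluster), with 95% counting intervals and, hatched, the level of Pcdhgc3 alone. Beta sums lie between 42.0 and 67.3 on day 10 and between 4.61 and 8.29 on day 6, while the gamma sum holds a large share of Pcdhgc3 in every library.

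Counted by gene, 49 of all 59 clustered protocadherins had all 3 day 10 libraries above all 3 day 6 libraries, against 23% of all genes in the table. They comprised 21 of 22 beta, 17 of 22 gamma and 11 of 15 alpha genes. This count takes a difference of any size, also of few reads. Pcdha4, for example, was at 0.02 RPKM in each day 10 library and at 0 on day 6. The exceptions were Pcdhb1 in the beta cluster, Pcdhac1, Pcdhac2, Pcdha8 and Pcdha4-g in the alpha cluster, and Pcdhga9, Pcdhga12, Pcdhgb4, Pcdhgb7 and Pcdhgc3 in the gamma cluster. These exceptions were named after their values were seen. A difference of 2-fold or more on the log2(RPKM + 0.5) scale, among genes that reached 1 RPKM in some library of that culture, was met by 23 of the 35 members compared in KO with Dkk, against 17.6% of all genes compared. It was met by 26 of 35 in KO, against 21.1%, and by 24 of 35 in WT, against 16.9%. The other 24 of the 59 members stayed below 1 RPKM in that culture. A member that passed through the libraries where it is high had to differ, so shares of the members compared are a description, here and in the comparisons that follow. No member was 2-fold lower on day 10, where 6.81%, 8.01% and 7.98% of all genes were in KO with Dkk, KO and WT. The median of all genes compared was itself higher on day 10 by 0.14, 0.16 and 0.09 in KO with Dkk, KO and WT.

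An additive model fitted with limma to all genes and all 10 libraries, with a level for each culture and day, takes the 3 SFEB conditions as repeats of the day difference. Its day term was looked at after the values had been seen. With no filter on low values it called 37 of 59 members higher on day 10 and 0 lower (adjusted p under 0.05, limma with Benjamini-Hochberg adjustment, two-sided), against 12.9% of all genes called higher and 7.35% lower. The 37 were 21 of 22 beta, 9 of 15 alpha and 7 of 22 gamma genes. With a filter of 1 RPKM in some library 35 members were tested and 29 called higher and 0 lower, against 27% and 16.4% of all genes tested. Most of these 35 reach 1 RPKM on day 10 alone. Without the KO library with Dkk of day 10, whose depth is the least certain, 23 of 35 were called higher and 0 lower. Of all genes, 15.1% were called higher and 6.72% lower in that fit. Beta calls stayed at 17 of 17 genes and alpha calls at 2 of 3, while gamma calls went from 10 of 15 to 4 of 15.

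Within the beta cluster, levels spread widely. Pcdhb17, the most abundant beta gene, was at 9.61 RPKM in KO with Dkk, 10.7 in KO and 10.5 in WT on day 10, against 0.40, 0.62 and 0.81 RPKM on day 6 in the same order. The day 10 values lay close together and far above those of day 6, with a limma log2 change of 3.29 (SE 0.16, adjusted p = 0.00038). Pcdhb22, at the gamma end of the array, stood at 4.11, 5.87 and 5.91 RPKM on day 10 in KO with Dkk, KO and WT, against 1.41, 1.29 and 2.39 RPKM on day 6, the highest day 6 levels in the cluster. Its limma change was 1.42 (SE 0.19, adjusted p = 0.00382). Pcdhb11 was at 3.23, 4.17 and 7.69 RPKM on day 10, against 0.54, 0.35 and 0.84 RPKM on day 6 in KO with Dkk, KO and WT. In the FBS culture Pcdhb11 was listed at 0 in all 4 libraries, while Pcdhb17 reached 0.43 and Pcdhb22 1.11 RPKM in control on day 7. Pcdhb20, at 3.01, 3.98 and 5.31 RPKM on day 10 in the same order, and Pcdhb19, at 2.69, 3.74 and 3.47 RPKM, completed the 5 highest beta genes by mean level. Their limma changes were 2.10 (SE 0.13) and 2.22 (SE 0.14), with adjusted p values of 0.000477 and 0.000533. At the other end, Pcdhb1 had 0.07 RPKM in WT on day 10 and was listed at 0 in the other 9 libraries.

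The order of beta genes by level was alike in the 3 day 10 libraries, with Spearman's rho of 0.92 to 0.98 over 22 genes for each pair of libraries. Between day 10 and day 6 libraries it was 0.66 to 0.80. These correlations are across genes, which are no replicates, and the libraries share gene lengths and the same counting. Genes late in the array tended to be higher, with rho between chromosomal position and level of 0.42, 0.42 and 0.31 on day 10 and 0.48, 0.50 and 0.54 on day 6 in KO with Dkk, KO and WT. The last 7 genes, Pcdhb16 to Pcdhb22, held 56.4%, 56.7% and 46.1% of the beta sum on day 10 and 62.9%, 69.3% and 69.1% on day 6 in that order. In control cells of the FBS culture they held 87.4% on day 7. The division after the first 15 genes was chosen after the values were seen.

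**Figure D2:**
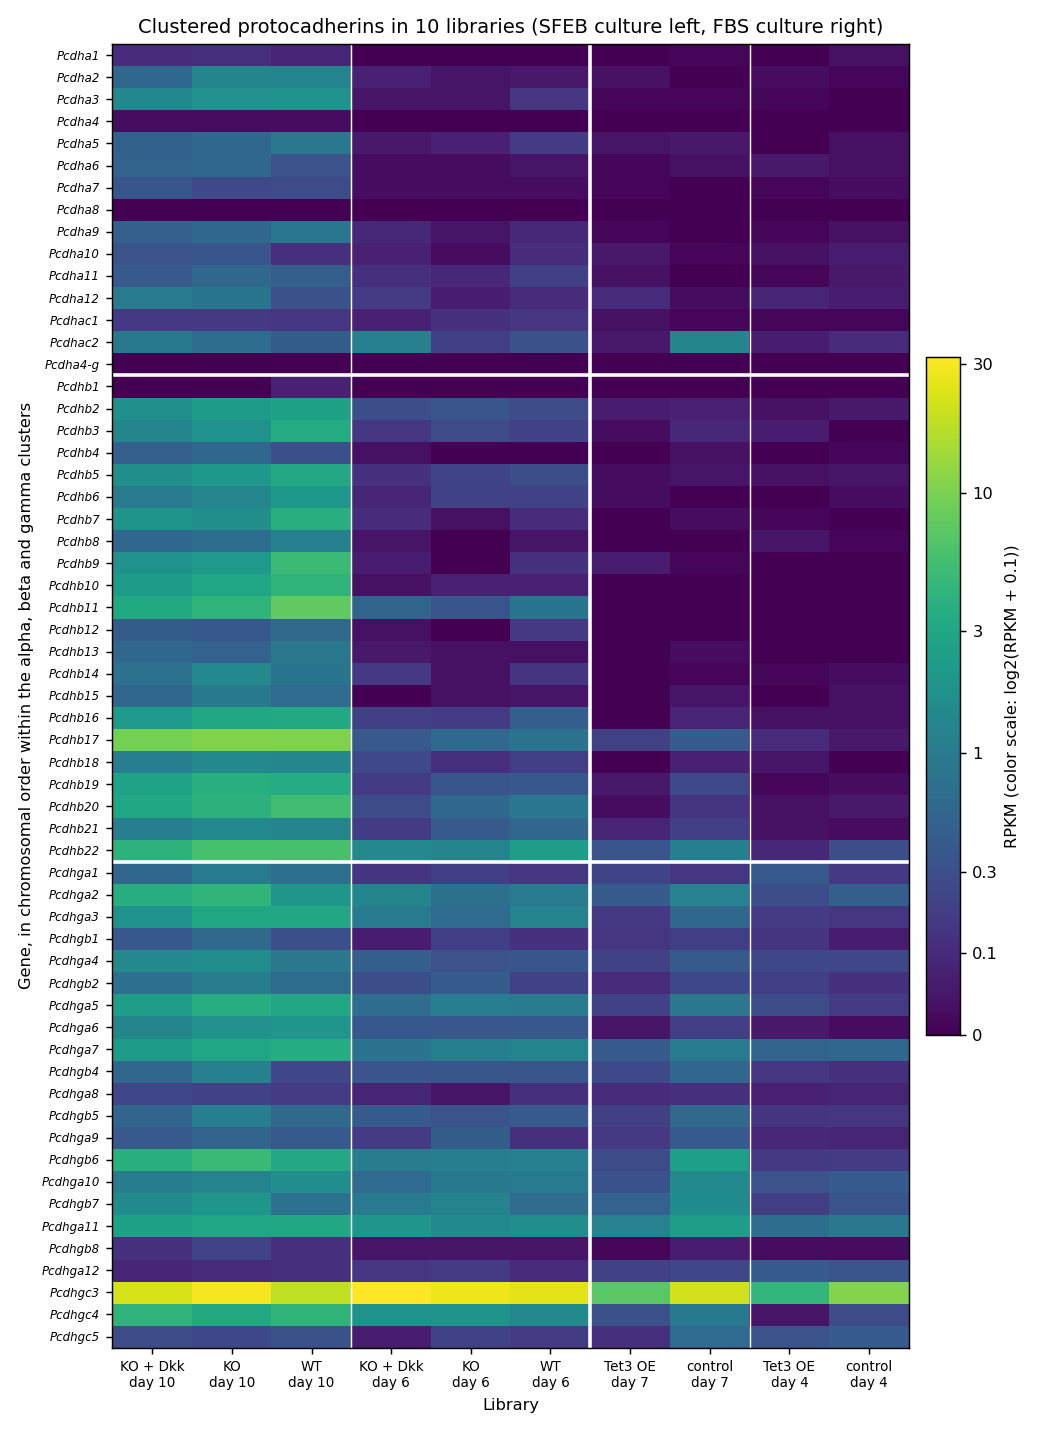
Level of each of the 59 genes (rows, in chromosomal order within each cluster, with Pcdha4-g, which was not placed, last in the alpha cluster) in each of the 10 libraries (columns), coloured by RPKM on a log2(RPKM + 0.1) scale. Beta genes other than Pcdhb1 are brighter in the 3 day 10 columns than in the 3 day 6 columns, and Pcdhgc3 is the brightest row in every column.

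Alternate alpha genes stayed low even on day 10. Pcdha3 was the highest, at 1.39 RPKM in KO with Dkk, 1.77 in KO and 1.85 in WT on day 10, against 0.04, 0.04 and 0.15 RPKM on day 6. Its limma log2 change was 1.91 (SE 0.13, adjusted p = 0.000587). Pcdha2, next to it in the array, was at 0.58, 1.30 and 1.26 RPKM on day 10, against 0.07, 0.04 and 0.05 RPKM on day 6, with a change of 1.45 (SE 0.20, adjusted p = 0.00382). In both genes all day 10 libraries were above all day 6 libraries. Pcdha12 was at 0.96, 0.85 and 0.32 RPKM on day 10 in KO with Dkk, KO and WT, against 0.18, 0.06 and 0.11 RPKM on day 6. Pcdha5 was at 0.50, 0.58 and 0.91 RPKM on day 10, against 0.05, 0.07 and 0.17 RPKM on day 6. The summed alternate alpha genes had log2 ratios of day 10 over day 6 of 3.11 in KO with Dkk, 4.14 in KO and 2.79 in WT, near or above those of the beta cluster.

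The C-type genes differed among themselves. Pcdhgc4 and Pcdhgc5 had all day 10 libraries above all day 6 libraries, as most alternate genes did, while Pcdhac1, Pcdhac2 and Pcdhgc3 did not. For Pcdhgc5 and Pcdhac1 this rests on low values. In KO Pcdhgc5 was at 0.25 RPKM on day 10 against 0.21 on day 6, and in WT Pcdhac1 was at 0.15 on both days. Pcdhac2 was at 0.92, 0.69 and 0.45 RPKM on day 10, against 1.14, 0.20 and 0.32 RPKM on day 6 in KO with Dkk, KO and WT, so the days overlapped. Pcdhac1 was at 0.15 to 0.16 RPKM on day 10 and 0.07 to 0.15 on day 6. The summed alpha C-type pair had a log2 ratio between the days of -0.16 (interval -0.54 to 0.21) in KO with Dkk and 0.35 (-0.35 to 1.06) in WT, both intervals including 0, and 1.37 (0.62 to 2.11) in KO. Pcdhgc3 had the highest level of all 59 genes in every library. It was at 22.7 RPKM in KO with Dkk, 29.4 in KO and 18.5 in WT on day 10, against 31.4, 27.7 and 25.2 RPKM on day 6. It was thus higher on day 6 in KO with Dkk and in WT but not in KO, and limma made no call (log2 -0.27, SE 0.17, adjusted p = 0.247). Pcdhgc4 lay at 4.14, 3.26 and 4.22 RPKM on day 10, above its 1.79, 1.87 and 1.44 RPKM on day 6, with a limma log2 change of 0.99 (SE 0.17, adjusted p = 0.00707). Pcdhgc5 was low throughout, at 0.25 to 0.32 RPKM on day 10 and 0.06 to 0.21 on day 6.

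Pcdhgc3 held a large share of the gamma sum. It made up 43.3%, 44.1% and 37.5% of that sum on day 10 and 71.0%, 67.4% and 66.2% on day 6 in KO with Dkk, KO and WT. The part that reads of the shared gamma exons have in its value was not tested. Without Pcdhgc3 the gamma sum was 29.8, 37.3 and 30.9 RPKM on day 10 and 12.8, 13.4 and 12.9 RPKM on day 6. The log2 ratios of that sum were 1.22 (interval 1.10 to 1.34), 1.48 (1.35 to 1.61) and 1.26 (1.13 to 1.39), each below that of the beta cluster with intervals that do not meet. Among single genes, Pcdhgb6 was at 3.78, 4.74 and 3.14 RPKM on day 10, against 1.06, 1.09 and 1.13 RPKM on day 6, with a limma log2 change of 1.45 (SE 0.36, adjusted p = 0.0239). Pcdhga2 was at 3.54, 4.25 and 2.0 RPKM on day 10, against 1.30, 0.75 and 0.95 RPKM on day 6, with a change of 1.29 (SE 0.25, adjusted p = 0.011). Pcdhga11, which also kept the second highest mean level of the cluster, was at 2.59, 2.87 and 2.99 RPKM on day 10, against 1.93, 1.52 and 1.58 RPKM on day 6, a smaller change of 0.61 (SE 0.17, adjusted p = 0.033). In each of these genes the days did not overlap.

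**Figure D3:**
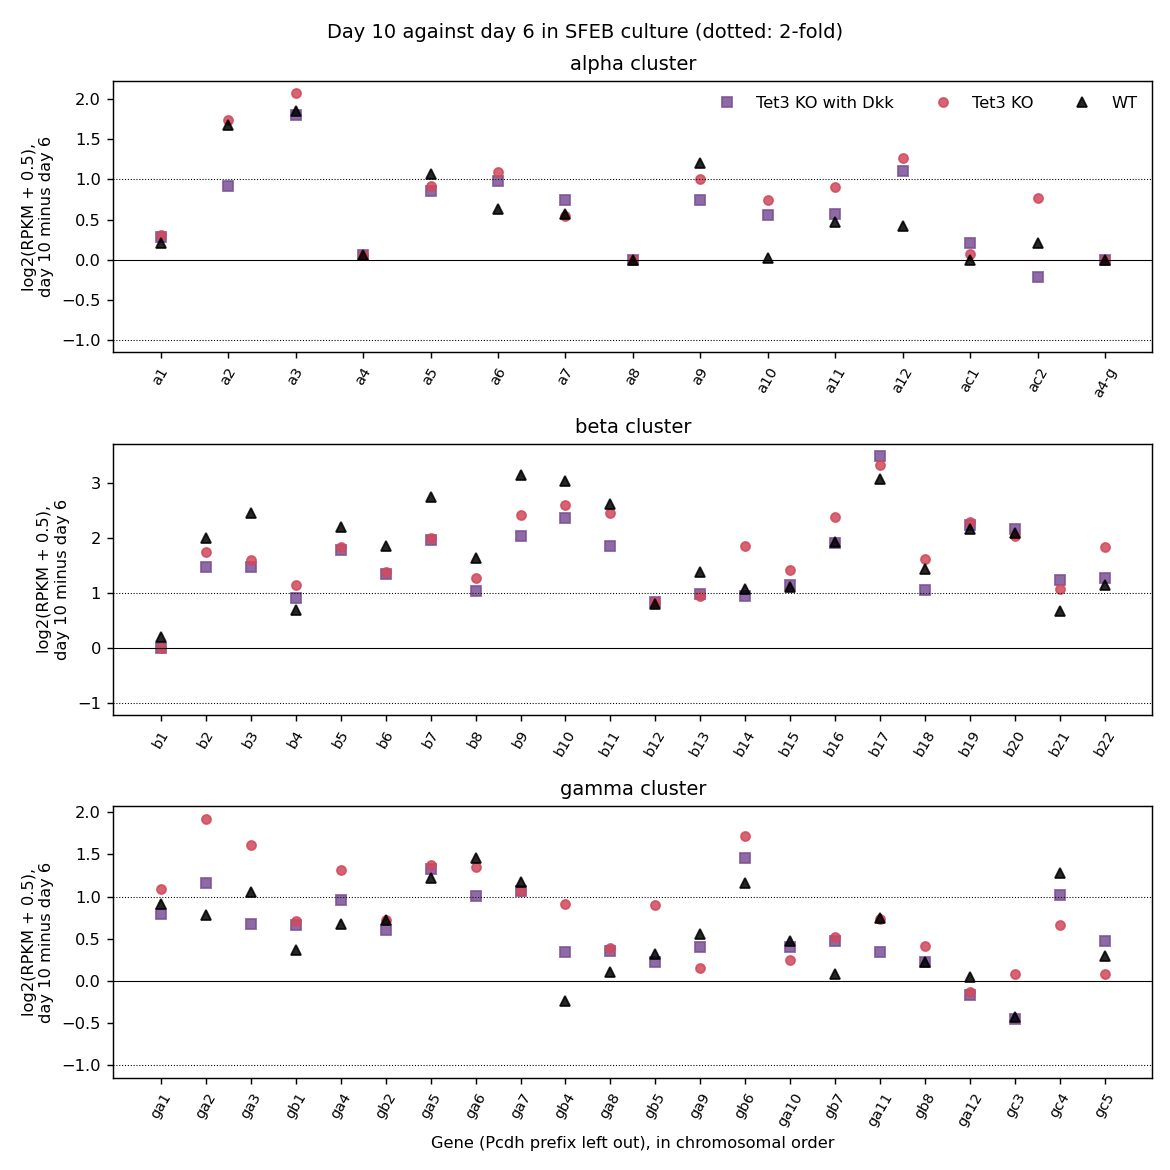
Difference between day 10 and day 6 on the log2(RPKM + 0.5) scale (vertical axis) for each gene of the alpha, beta and gamma clusters in chromosomal order, in KO with Dkk (squares), KO (circles) and WT (triangles), with dotted lines at 2-fold. Pcdhb17 lies at 3.07 to 3.49, the highest beta gene in KO with Dkk and in KO, with Pcdhb9 above it in WT, and Pcdhgc3 lies between -0.45 and 0.09.

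Markers of cell types moved with the days. All 12 neuron markers were at least 2-fold higher on day 10 in each of the 3 conditions, and their summed level was 2813, 2415 and 2533 RPKM on day 10 and 172.5, 140.3 and 267.1 RPKM on day 6 in KO with Dkk, KO and WT. Tubb3, a neuronal tubulin, was at 884.9, 599.4 and 615.6 RPKM on day 10, against 45.7, 34.0 and 93.4 RPKM on day 6. No marker of that list was at 0 in any library. The part of this difference in the protocadherin values was not tested. In the FBS culture the neuron sum was higher with overexpression than in control on both days, at 244.5 against 55.2 RPKM on day 7 and 290.8 against 177.8 RPKM on day 4. Of the 8 neuron markers that reached 1 RPKM there, 7 were at least 2-fold higher on day 7. On day 4 only 1 was, Tubb3, while Map2, Nefl and Nefm were lower. All 3 clusters summed lower with overexpression on day 7. On day 4 the gamma sum was lower, while the counting intervals of the alpha and beta ratios included no difference.

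The next question was how loss of Tet3 changed the clusters in the neural culture. The beta sum was lower in KO, at 53.2 RPKM against 67.3 in WT on day 10 and 5.21 against 8.29 on day 6. The log2 ratios were -0.34 (interval -0.42 to -0.25) and -0.67 (-0.94 to -0.40). The gamma sum was higher, at 66.7 RPKM in KO against 49.4 in WT on day 10, a log2 ratio of 0.43 (0.36 to 0.51), and differed little on day 6, at 41.0 against 38.1 (0.11, interval 0.02 to 0.20). The alpha sum was at 7.92 RPKM in KO against 7.10 in WT on day 10, within counting error (0.16, interval -0.03 to 0.35), and at 0.73 against 1.41 on day 6 (-0.95, interval -1.51 to -0.39). The intervals leave out the variation between cultures, which 1 library a condition cannot show.

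By gene, 15 of 22 beta genes had a lower RPKM in KO than in WT on day 10 and 15 of 22 on day 6. The beta genes lowest in KO on day 10 by log2 ratio were Pcdhb9, Pcdhb7 and Pcdhb11. Pcdhb9 was at 2.18 RPKM in KO against 5.04 in WT on day 10 (log2 -1.05) and was listed at 0 in KO against 0.13 RPKM on day 6. Pcdhb7 was at 1.62 RPKM in KO against 3.61 in WT on day 10 (log2 -0.96), and Pcdhb11 at 4.17 against 7.69 (log2 -0.81). Pcdhb17 and Pcdhb22, in contrast, were at 10.7 and 5.87 RPKM in KO against 10.5 and 5.91 in WT on day 10. The difference of the beta sum on day 10 lay in the first 15 genes of the array, which summed to 23.1 RPKM in KO against 36.3 in WT, while the last 7 summed to 30.2 against 31.0. Within the first 15, Pcdhb4, Pcdhb14 and Pcdhb15 were higher in KO on day 10, at 0.61, 1.41 and 0.92 RPKM against 0.31, 0.84 and 0.66 in WT. On day 6 the last 7 also differed, at 3.61 RPKM in KO against 5.73 in WT, and the first 15 stood at 1.60 against 2.56.

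In the gamma cluster 14 of 22 genes were higher in KO on day 10 and 10 of 22 on day 6. The median log2 ratio of the 22 was 0.21 on day 10 and 0 on day 6, against 0.06 and 0 for all genes compared. The summed B-type genes were at 10.8 RPKM in KO against 5.89 in WT on day 10 (log2 0.88, interval 0.68 to 1.08), the A-type genes at 23.0 against 20.5 (0.17, interval 0.05 to 0.29). Pcdhgb4 was at 1.14 RPKM in KO against 0.24 in WT on day 10 (log2 1.15) and at 0.37 in both on day 6. Pcdhgb7 was at 1.96 RPKM in KO against 0.76 in WT on day 10 (log2 0.97) and at 1.22 against 0.69 on day 6 (log2 0.53). Pcdhga2 was at 4.25 RPKM in KO against 2.0 in WT on day 10 (log2 0.93) but at 0.75 against 0.95 on day 6. Pcdhgc3 was at 29.4 RPKM in KO against 18.5 in WT on day 10 (log2 0.65) and at 27.7 against 25.2 on day 6 (log2 0.13).

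At 2-fold, 1 of the 35 members compared was higher in KO on day 10, Pcdhgb4, against 8.26% of all genes compared, and 1 lower, Pcdhb9, against 1.96%. On day 6, 0 of 35 were higher, against 4.88%, and 0 lower, against 2.18%. No member was past 2-fold in the same direction on both days. The limma model, which takes the days of the culture as repeats of a condition, called 0 members (11 genes of 13757 were called higher, 0.08%, and 1 lower, 0.00727%), with 1 member higher and 2 lower at an unadjusted p under 0.05, where 13.8% of all genes had such a p. Pcdhb11 had a limma log2 change of -0.73 (SE 0.22, adjusted p = 0.268), lower on both days, and Pcdhgb7 one of 0.75 (SE 0.23, adjusted p = 0.273), higher on both days. The fibroblast and mesoderm markers differed between these libraries, with 8 of 8 at least 2-fold higher in KO on day 10 and 6 of 8 on day 6. Their summed level was 566.3 RPKM in KO against 38.9 in WT on day 10 and 255.4 against 7.06 on day 6, and none of them was at 0. Cardiac markers summed to 87.7 RPKM in KO against 4.21 in WT on day 10 and to 16.8 against 2.74 on day 6, with 4 and 3 of 5 at least 2-fold higher and Nkx2-5 listed at 0 in WT. Endoderm markers summed to 39.9 RPKM against 47.9 on day 10 and to 20.5 against 6.87 on day 6, with 1 and 3 of 5 higher. Sums of neural markers were lower in KO on day 6. Among the progenitor markers Pax6 was higher, at 33.1 RPKM against 21.6 in WT, and Sox2 nearly level, at 41.4 against 40.8. The neuron sum was 140.3 RPKM in KO against 267.1 in WT, with 2 of 12 at least 2-fold lower, and the neural progenitor sum 217.4 against 381.5, with 4 of 8 lower. On day 10 these sums were 2415 against 2533 RPKM, with 0 of 12 neuron markers past 2-fold, and 990.7 against 848.2 RPKM, with 1 of 8 progenitor markers lower. The part of these markers in the protocadherin differences was not tested.

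**Figure D4:**
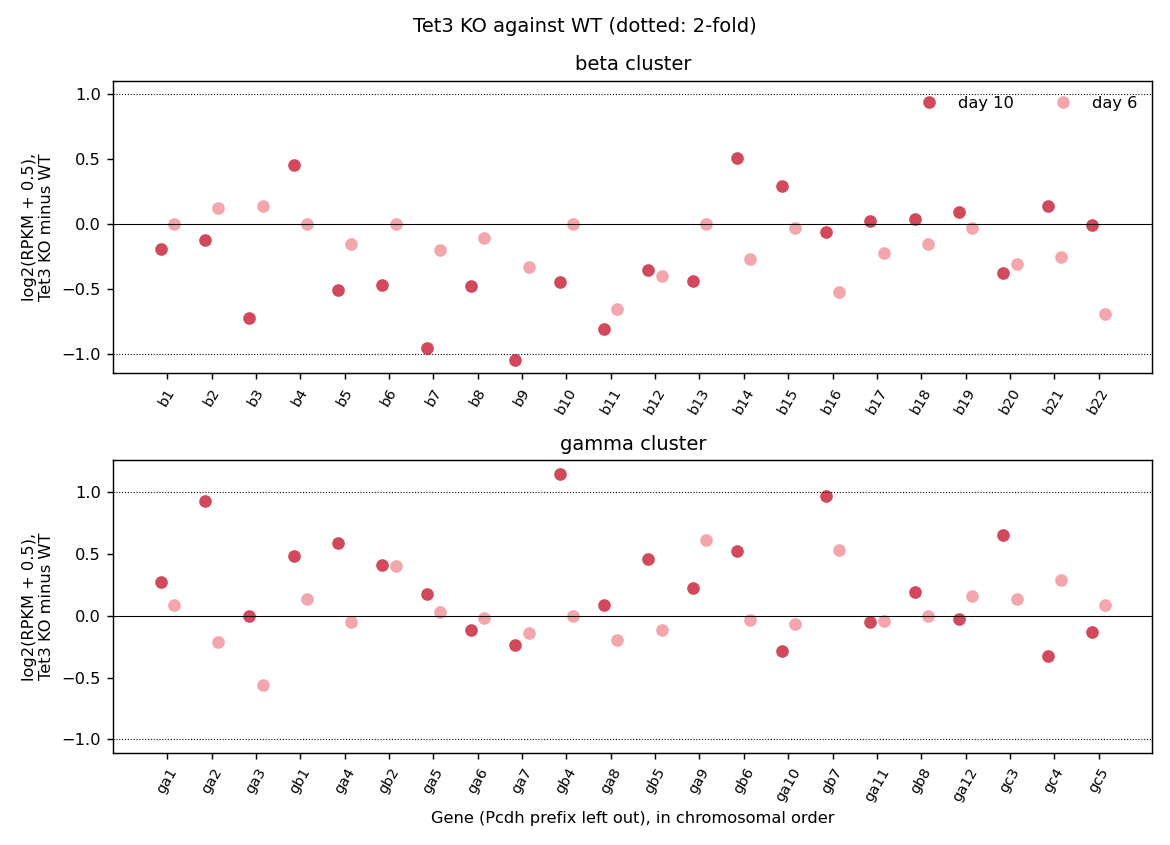
KO minus WT on the log2(RPKM + 0.5) scale (vertical axis) for each beta gene (upper panel) and gamma gene (lower panel) in chromosomal order, on day 10 (dark) and day 6 (light), with dotted lines at 2-fold. On day 10, 15 of 22 beta genes lie below 0 and 14 of 22 gamma genes above 0, and Pcdhb9 and Pcdhgb4 pass 2-fold.

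A further comparison asked what Dkk changed in KO cells. On day 10 all 3 clusters summed lower with Dkk, alpha at 6.79 RPKM against 7.92 in KO, beta at 42.0 against 53.2 and gamma at 52.6 against 66.7. The log2 ratios were -0.22 (interval -0.38 to -0.07), -0.34 (-0.42 to -0.27) and -0.34 (-0.40 to -0.29). By gene, 45 of 59 had a lower RPKM with Dkk. The median log2 ratio of the 59 was -0.24, against -0.007 for all genes compared. On day 10 the beta sum therefore lay further from WT with Dkk than without, at 42.0 RPKM against 67.3 in WT (log2 -0.68, interval -0.75 to -0.61). On day 6 the beta sum with Dkk was at 4.61 RPKM against 8.29 in WT (-0.85, interval -1.12 to -0.57). Its difference from KO on that day was within counting error. The gamma sum with Dkk was at 52.6 RPKM against 49.4 in WT on day 10 (0.09, interval 0.03 to 0.15). On day 6 beta stood at 4.61 RPKM with Dkk against 5.21 in KO (-0.18, interval -0.48 to 0.13) and gamma at 44.2 against 41.0 (0.11, interval 0.02 to 0.19).

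The alpha sum on day 6 was at 1.87 RPKM with Dkk against 0.73 in KO, a log2 ratio of 1.36 (interval 0.84 to 1.88). Most of this came from Pcdhac2, at 1.14 RPKM with Dkk against 0.20 in KO and 0.32 in WT on that day (log2 of Dkk over KO 1.23). On day 10 Pcdhac2 was again higher with Dkk, at 0.92 RPKM against 0.69 in KO. Pcdhac2 was the 1 of 35 members compared past 2-fold higher with Dkk on day 6, against 2.18% of all genes compared, and 0 were lower, against 3.57%. On day 10, 0 of 35 were higher, against 1.7%, and 0 lower, against 5.23%. The members with the lowest log2 ratio on day 10 were Pcdha2 (-0.74), at 0.58 RPKM with Dkk against 1.30 in KO, Pcdhga3 (-0.59), at 1.86 against 3.06, and Pcdhgb4 (-0.59), at 0.59 against 1.14. For Dkk limma called 0 members (2 genes were called higher, 0.0145%, and 4 lower, 0.0291%), with 0 members higher and 1 lower at an unadjusted p under 0.05, Pcdhb20 (log2 -0.42, SE 0.16, adjusted p = 0.786), against 5.76% of all genes at such a p in either direction. Compared with WT, 0 of 35 members with Dkk were 2-fold higher on day 10, against 4.59% of all genes, and 3 lower, Pcdhb3, Pcdhb9 and Pcdhb11, against 1.68%. On day 6, 0 were higher, against 1.58%, and 0 lower, against 0.976%. The fibroblast and mesoderm markers summed to 61.1 RPKM with Dkk against 566.3 in KO on day 10 and to 9.91 against 255.4 on day 6, with 7 and 6 of 8 at least 2-fold lower. The cardiac sum was 46.6 RPKM with Dkk against 87.7 in KO on day 10 and 3.91 against 16.8 on day 6. The neural progenitor sum was 1001 RPKM with Dkk against 990.7 in KO on day 10 and 339 against 217.4 on day 6. The neuron sum was 2813 RPKM with Dkk against 2415 in KO on day 10 and 172.5 against 140.3 on day 6. On day 10 much of the gap was Tubb3, at 884.9 RPKM against 599.4. The median log2 ratio of the 12 neuron markers was -0.11 on that day, with 0 past 2-fold, and 0.23 on day 6, with 1 higher. The endoderm sum was 167.8 RPKM against 39.9 on day 10, mostly from Ttr at 154.7 against 9.28, and 15.4 against 20.5 on day 6. The part of all these markers in the differences with Dkk was not tested.

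In the FBS culture the question was what added Tet3 changes where neural fate is not favoured. On day 7 the summed level of every cluster was lower with overexpression. Gamma was at 12.9 RPKM against 38.2 in control (log2 -1.57, interval -1.67 to -1.47), beta at 0.89 against 2.61 (-1.55, interval -2.00 to -1.11) and alpha at 0.38 against 1.41 (-1.89, interval -2.43 to -1.35). On day 4 gamma was at 9.43 RPKM against 16.2 in control (-0.78, interval -0.88 to -0.68), while the intervals for beta (0.51 against 0.64 RPKM) and alpha (0.29 against 0.43) included a ratio of 1. The wider gap on day 7 went with a difference between the days in control cells, where gamma was at 38.2 RPKM on day 7 and 16.2 on day 4 (log2 1.24), against 12.9 and 9.43 RPKM with overexpression (0.45). Of the 59 members, 8 reached 1 RPKM in the FBS culture and were compared at 2-fold. All of them but Pcdhgc3 and Pcdhga11 did so in control on day 7 alone. Shares of these 8 that involve that library are therefore a description. In control cells 6 of the 8 were 2-fold higher on day 7 than on day 4, against 11.5% of all genes compared, and with overexpression 0 were, against 3.49%. None was 2-fold lower on day 7, against 8.71% of all genes in control cells and 1.2% with overexpression. The limma model called 0 members between these days, where 0.109% of all genes were called higher and 0 lower, with 7 members higher at an unadjusted p under 0.05, against 16.7% of all genes in either direction. The difference between those day changes was not tested.

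Pcdhgc3 was the 1 member at least 2-fold lower with overexpression on both days. It was at 7.22 RPKM with overexpression against 21.8 in control on day 7 (log2 -1.53) and at 4.46 against 10.8 on day 4 (-1.19). On day 4 it was also the 1 of 8 members compared past 2-fold lower, against 3.47% of all genes compared, and without it the gamma sum was at 4.97 RPKM against 5.39 (log2 -0.12, interval -0.27 to 0.03). On day 7, 5 of the 8 were 2-fold lower, against 11.1% of all genes, and 0 higher, against 6.96%. Besides Pcdhgc3 they were Pcdhgb6, Pcdhac2, Pcdhga10 and Pcdhgb7, which entered the comparison through control on day 7 alone. Pcdhgb6 was at 0.28 RPKM with overexpression against 2.51 in control (log2 -1.95), Pcdhac2 at 0.05 against 1.27 (-1.69), Pcdhga10 at 0.33 against 1.48 (-1.25) and Pcdhgb7 at 0.52 against 1.57 (-1.02). On day 4 the same 4 genes were at 0.16, 0.06, 0.34 and 0.19 RPKM with overexpression and at 0.18, 0.10, 0.43 and 0.35 RPKM in control, so they were low in both. Only Pcdhga1 of the 22 gamma genes had a higher RPKM with overexpression on day 7, at 0.23 against 0.15. The median log2 ratio of the 22 was -0.69 on that day, against -0.03 for all genes compared. The alternate alpha genes together were higher with overexpression on day 7, at 0.30 RPKM against 0.13 (log2 1.21, interval 0.31 to 2.10), at levels of few reads a gene.

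**Figure D5:**
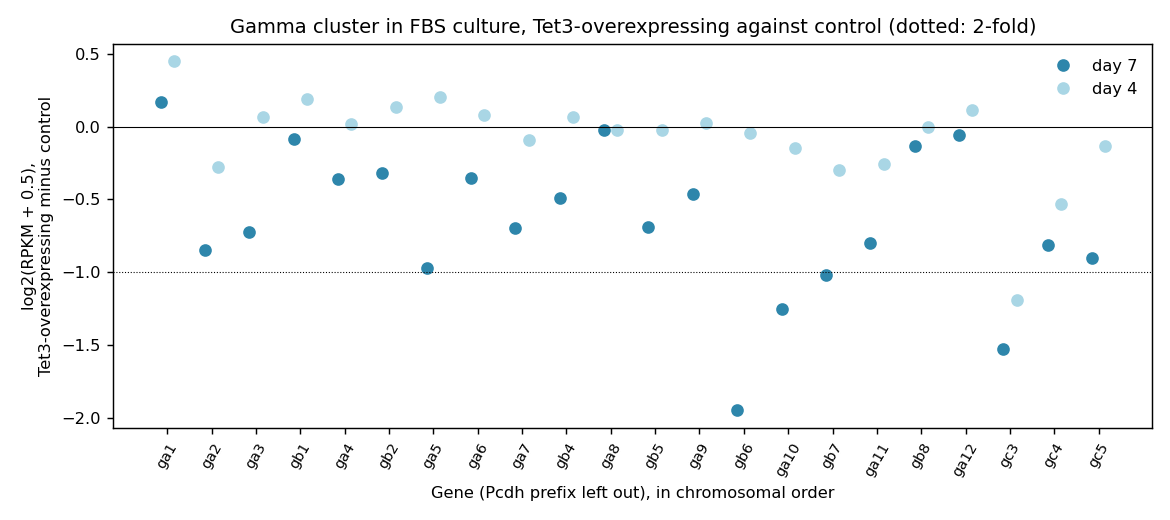
Tet3-overexpressing minus control on the log2(RPKM + 0.5) scale (vertical axis) for each gamma gene in chromosomal order, on day 7 (dark) and day 4 (light), with a dotted line at 2-fold lower. On day 7, 21 of 22 gamma genes lie below 0 and Pcdhgb6 is lowest at -1.95, and Pcdhgc3 is the gene past the line on both days.

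For overexpression limma called 0 members (2 genes were called higher, 0.0145%, and 1 lower, 0.00727%), with 0 members higher and 6 lower at an unadjusted p under 0.05, where 18% of all genes had such a p in either direction. Pcdhgc3 had a log2 change of -1.36 (SE 0.21, adjusted p = 0.116). Pcdhgc4 had one of -0.67 (SE 0.20, adjusted p = 0.203), at 0.32 RPKM with overexpression against 0.94 in control on day 7 and 0.04 against 0.28 on day 4. Markers of other cell types differed on day 7. The fibroblast and mesoderm sum was 37.1 RPKM with overexpression against 369.2 in control, with 7 of 8 markers at least 2-fold lower and 1 higher. The endothelium sum was 19.6 against 95.5 RPKM, with 4 of 4 lower, and the pluripotency sum 970.5 against 231.4 RPKM, with 3 of 4 higher. On day 4 these sums were 101.1 against 44.4, 16.8 against 15.1 and 1337 against 1206 RPKM. No marker of these 3 lists was at 0 in either group. The cardiac sum was 7.94 RPKM with overexpression against 60.5 in control on day 7 and 1.82 against 4.49 on day 4, and the endoderm sum 20.3 against 96.0 RPKM on day 7 and 1.22 against 4.48 on day 4, where Afp was listed at 0 with overexpression. The part of these markers in the protocadherin differences was not tested.

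Known regulators of the clusters differed between the days too. Of 17 regulators, limma called 2 higher and 7 lower on day 10, against 27% and 16.4% of all genes. The 2 higher were Dnmt3a (limma log2 0.535, SE 0.13, adjusted p = 0.0228) and Tet2 (log2 1.42, SE 0.13, adjusted p = 0.00156). The 7 lower were Dnmt1, Dnmt3b, Rest, Setdb1, Smc1a, Smc3 and Smchd1. Dnmt3b, which methylates alternate promoters, was at 6.65 RPKM in KO with Dkk, 3.74 in KO and 13.6 in WT on day 10, against 53.1, 38.2 and 40.7 RPKM on day 6 (limma log2 -2.55, SE 0.56, adjusted p = 0.0165). Smchd1 was at 13.4, 14.5 and 19.7 RPKM on day 10, against 27.6, 27.1 and 30.1 on day 6 (log2 -0.83, SE 0.21, adjusted p = 0.0239). Both had every day 10 library below every day 6 library. Setdb1 was also called lower, at 21.4 to 22.6 RPKM on day 10 and 31.9 to 35.3 on day 6. Ctcf was at 38.1, 39.2 and 61.3 RPKM on day 10, against 48.2, 49.9 and 62.3 RPKM on day 6, with no call (log2 -0.23, adjusted p = 0.245). For KO against WT, for Dkk and for overexpression limma called 0 of these 17. With overexpression Dnmt3b was at 250.9 RPKM against 49.0 in control on day 7, and at 143.2 against 182.4 on day 4.

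Of 12 cytoplasmic partners and proteases that bind or cut protocadherins, limma called 4 higher and 2 lower on day 10. For this list and those below, 27% of all genes were called higher and 16.4% lower, so none is read as differing from the other genes. Cyfip2, a subunit of the WAVE actin regulator, was at 39.0, 43.4 and 41.9 RPKM on day 10, against 11.6, 10.3 and 12.0 RPKM on day 6 in KO with Dkk, KO and WT (log2 1.83, SE 0.40, adjusted p = 0.0156). Of 11 protocadherins outside the clusters 10 were tested, with 4 called higher by limma on day 10 and 0 lower. Pcdh10 was at 3.61, 3.10 and 3.77 RPKM on day 10, against 0.11, 0.08 and 0.20 RPKM on day 6 (log2 2.67, SE 0.12, adjusted p = 0.00035), and Pcdh9, Pcdh11x and Pcdh17 were the others. Of 18 classical cadherins 15 were tested, with 6 called higher and 0 lower. Of 20 genes beside the clusters on the chromosome 18 were tested, with 4 called higher and 4 lower. Taf7, which lies between the beta and gamma arrays, was at 17.2, 15.8 and 20.9 RPKM on day 10, against 20.1, 19.0 and 19.5 on day 6, with no call (adjusted p = 0.569). Slc25a2, its neighbour, stayed at or below 0.33 RPKM in all 10 libraries.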

How the data were processed

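The authors deposited 1 table of RPKM values for 21937 gene symbols. Counting with HTSeq and the mouse build mm9 are named per the submitters' processing notes; aligner, annotation, strand setting and treatment of multiply matching reads were not given in the sources used here. Libraries were grouped by title, 1 for each condition and day, so a single comparison has no replicate and no test.

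Depth was estimated as the total at which low RPKM values of single-transcript genes lay closest to whole reads, with transcript lengths from GENCODE vM21. A peak at a whole fraction of that total was taken where it scored nearly as well. At the totals used, 59.7% to 73.6% of the values came within 0.15 read, against 13.3% to 43.8% at totals nearby. With RefSeq gene lengths, 14 of 14 low beta values came within 0.2 read. For alpha and gamma genes the longest GENCODE transcript was used, without that check. For KO with Dkk on day 10 a total of 75800000 reads scored higher than the 37200000 used. Reads that match several paralogs and reads of shared exons cannot be followed in the table, and RPKM divides by the library total.

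Ratios are differences of log2(RPKM + 0.5), which understates changes of low genes; cluster sums carry no pseudocount. Only genes that reached 1 RPKM in some library of the culture entered a comparison. limma 3.58.1 (R 4.3.3; Python 3.11.15, pandas 2.3.3) was fitted to all 10 libraries with 4 levels of culture and day and terms for KO, KO with Dkk and overexpression, leaving 3 residual degrees of freedom, with Benjamini-Hochberg adjustment over 13757 genes, and was tested on simulated data. Alternatives were pseudocounts of 0.1 and 1, no filter, TPM and median-of-ratios scaling, 1 culture alone, sums without the top member and, added after the data were seen, leaving out KO with Dkk of day 10. Gene order within a cluster and older symbols came from RefSeq and GENCODE.

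Members and gene lists were chosen with earlier results of these data known. Genes were named as follows: the 5 members of each cluster with the highest mean RPKM, the C-type members, the 3 highest and 3 lowest by ratio in a comparison of conditions, members past 2-fold on both days, those at 0 throughout, and list genes past 2-fold on both days with Ctcf, Smchd1, Dnmt3b, Setdb1, Taf7, Slc25a2, Tubb3 and Dcx. Others were named after their values were seen.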

Additional observations from a re-analysis of the deposited data

Results flagged for a closer look

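The effect of Dkk on KO cells had opposite signs on the 2 days for 2 clusters and 2 genes; each value is a ratio of single libraries and the difference between the days was not tested. The alpha sum had a log2 ratio of Dkk over KO of -0.22 on day 10 and 1.36 on day 6. The gamma sum had -0.34 on day 10 and 0.11 on day 6, but without Pcdhgc3 it had -0.32 and -0.064, the same sign on both days. Pcdhgc3, which makes up much of the gamma sum, had -0.36 on day 10, at 22.7 RPKM with Dkk against 29.4 in KO, and 0.18 on day 6, at 31.4 against 27.7. Pcdhga2, one of the higher alternate gamma genes, had -0.23 on day 10, at 3.54 RPKM with Dkk against 4.25 in KO, and 0.53 on day 6, at 1.30 against 0.75.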

How the results depend on the processing

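Each group has 1 library, so the spread between cultures is not measured. No paired analysis was possible because each group holds 1 library and the labels give no replicate numbers to pair by; the limma model does compare conditions within each day. Of the recomputed values that answer a comparison, 118 stayed within 1.5 times for counts, or inside the counting interval, under the alternatives run. Counts of 0 that stayed at 0 are among them, and the sign of values inside the interval was not checked. A further 17 moved past those limits and 1 reversed. For log2 ratios of single genes past 2-fold, 15 recomputed values stayed inside the counting interval and 21 moved outside it. With a pseudocount of 0.1, members past 2-fold in KO against WT became 3 lower on day 6, while on day 10 they became 3 higher and 2 lower; with Dkk they became 2 higher on day 6 and 1 lower on day 10, and with overexpression 2 lower on day 4. With a pseudocount of 1 they became 0 higher and 0 lower in KO on day 10, 0 higher with Dkk on day 6 and 3 lower with overexpression on day 7. A larger pseudocount shrinks ratios by construction. With TPM scaling 2 members were lower in KO on day 10, and the Dkk ratios on day 10 were -0.44 for beta and -0.44 for gamma. Pcdhgb7, just past 2-fold lower with overexpression on day 7, was at -0.98 with TPM scaling. With median-of-ratios scaling 2 members were lower in KO on day 10 and the gamma ratio of KO over WT was 0.35. Without Pcdhgc3 that gamma ratio was 0.27, the overexpression ratio on day 4 was -0.12, and the Dkk ratio on day 6 reversed to -0.064. limma called 0 members for KO, Dkk and overexpression under every alternative run. Depth limits low genes most: on day 6, 40.4 to 109 estimated reads lay behind an alpha sum.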
